A study of Mus musculus with 6 samples.

Results

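Sperm heads are shaped around an actin-related cytoskeleton that somatic cells do not build. The 6 testis genes Actl7a, Actl7b, Actrt2, Actrt3, Capza3 and Fscn3 were described here together with 4 genes of the general actin cytoskeleton, Actb, Actg1, Capzb and Fscn1. Members were taken by gene symbol alone: all probe sets that the array's annotation assigns to exactly one of these names, which gave 18 probe sets of the 45037 on the array for 10 of the 18193 genes named there. RNA of whole testes was measured at postnatal day 21 (P21) in 3 Dazap1 mutant samples (Fn) and 3 wild-type samples (Wt), with 1 Affymetrix mouse array (a single-colour design) for each sample. Fn mice were homozygous for a floxed Dazap1 allele that retains a neo cassette and makes an aberrant DAZAP1 protein with an insertion between its RNA-binding domains, so the allele is not a null. Both genotypes had the same mixed background of C57BL/6 and 129. DAZAP1 is an RNA-binding protein of the hnRNP class and most abundant in the testis. Most Fn mice die around birth, so these testes came from survivors, and germ cells past meiosis are missing from adult Fn testes. For P21, the paper describes testes of either genotype as rich in pachytene spermatocytes, with spermatids rare or absent. The paper adds that, in Wt testes of this age, a few germ cells are already past meiosis. Fn survivors grow poorly, and the paper raises a possible delay of their pachytene cells at P21 relative to Wt. The contribution of such a delay to the differences below was not tested. The labels call the samples of a genotype biological replicates, and the sources used here do not say how many animals each RNA preparation came from.

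In spermatids, actin and actin-like proteins fill the space between the acrosome and the nucleus and form part of the perinuclear theca, the protein shell that covers the nucleus and holds the acrosome in place. Capping proteins bind the fast-growing ends of actin filaments as a pair of an alpha and a beta subunit, and fascins tie filaments into parallel bundles. Capza3 encodes the alpha subunit made in male germ cells, whereas Capzb encodes the beta subunit in all cells, in several spliced forms. Actl7a and Actl7b are neighbours without introns. In mice, ACTL7A is needed for the attachment of the acrosome and ACTL7B for the shaping of spermatids. Actb and Actg1 encode the cytoplasmic beta-actin and gamma-actin.

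The values are MAS5 signals, a linear intensity for each probe set. They were compared on the log2 scale with limma, a linear model whose error estimates borrow from all probe sets, and p-values were adjusted by Benjamini-Hochberg over the 27022 probe sets whose geometric mean over the 6 arrays reached a signal of 48, the 40th percentile. This level is called the filter level below. The trimmed mean of each array was 498.4 to 498.6, so the arrays had been brought to one level before deposit. Dazap1 itself had signals of 2538, 2735 and 2820 in Fn and 4323, 4462 and 5046 in Wt testes, a log2 change of -0.77 (limma adjusted p = 6.7e-05). The sources used here do not place its probe set relative to the altered part of the gene. The median log2 change of the 13447 genes tested was 0.32, and centring the arrays on medians or on 75th percentiles brought it to 0.17 or 0.19. Small changes are to be read against that shift.

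Sequence upstream of 4 members is shown because it carries the letters compared between the testis and the general genes. RefSeq windows on mouse assembly GRCm38.p6, from 250 bases before to 50 bases after each annotated start, were matched for 8 of the 10 members. Actb and Capza3 had no window, so neither was searched for any motif. Shown are the 120 bases before the start, 5′ to 3′ on the strand of the gene, with the motif matches described here in capitals. The Actl7a and Actl7b starts lie 1997 bases apart on chromosome 4 and the genes are transcribed away from each other (Actl7a, chr4:56743302-56743421, plus strand; Actl7b, chr4:56741426-56741545, minus strand). The Actg1 bases are chr11:120348496-120348615 on the minus strand and the Fscn1 bases chr5:142960235-142960354 on the plus strand.
Actl7a: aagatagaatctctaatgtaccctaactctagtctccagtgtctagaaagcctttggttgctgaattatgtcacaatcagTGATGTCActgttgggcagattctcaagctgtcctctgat
Actl7b: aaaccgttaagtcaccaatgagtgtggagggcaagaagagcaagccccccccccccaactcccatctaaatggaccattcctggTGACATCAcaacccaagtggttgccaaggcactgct
Actg1: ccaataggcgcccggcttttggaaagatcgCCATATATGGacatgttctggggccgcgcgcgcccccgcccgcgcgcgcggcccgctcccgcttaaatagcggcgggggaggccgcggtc
Fscn1: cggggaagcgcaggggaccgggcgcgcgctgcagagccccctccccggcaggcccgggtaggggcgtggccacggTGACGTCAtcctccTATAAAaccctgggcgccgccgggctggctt

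The windows of Actl7a and Actl7b shared TGATGTCA, a sequence that differs by 1 letter from the cAMP response element TGACGTCA. It was read on the gene's strand in Actl7a, at positions -40 to -33, and on the other strand in Actl7b, at positions -36 to -29, where it appears as TGACATCA. This sequence was searched because it was seen in these windows, and 4.18% of the 27025 genes with a window held it on either strand. The full element TGACGTCA was found in Fscn1, at positions -45 to -38, and in 2.03% of all genes. Its core TGACG, which the full element contains, was found in Fscn1, Capzb and Actrt3 and in 23.05% of all genes. The TATA box TATAAA was in Fscn1 and, on the other strand, in Fscn3, and in 15.67% of all genes. Actg1 held the CArG box, the site of serum response factor, as did 1.81% of all genes. None of these letters was in the Actrt2 window.

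The testis genes that gave a signal above the filter level in Wt testes were all lower in Fn testes. Actl7a, Actl7b, Actrt2 and Capza3 were tested, and each was lower at an adjusted p under 0.05, where 24.7% of all 13447 genes tested were lower. Of these 4 genes, Actl7b alone lay above the filter level in both genotypes. The other 3 passed the filter only through their Wt arrays and so had to differ, which is why their count is no result in itself. Actrt3 and Fscn3 did not reach the filter level and were not tested. In whole testes, fewer cells of a type and less RNA per cell cannot be told apart.

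Actl7b had signals of 167.1, 319.2 and 249.6 in Fn testes, against 4394, 4112 and 4584 in Wt testes. All Fn arrays lay below all Wt arrays, as in 26.6% of all genes tested, and the Wt arrays differed little among themselves. The means were 245.3 ± 76.1 in Fn and 4364 ± 237 in Wt (SD, n = 3 each), an 18.4-fold lower geometric mean. The log2 change was -4.20 (standard error, SE, 0.20, 95% interval -4.65 to -3.75, limma adjusted p = 3.3e-07). Of all genes tested, 6.84% were lower by more than 2 on the log2 scale at this threshold.

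Its neighbour Actl7a had signals of 47.5, 12.5 and 3.5 in Fn testes, against 464.3, 228.3 and 366.9 in Wt testes. All Fn arrays were under the filter level, where a signal has no reliable order, and all Wt arrays were above it. Against the filter level, the Wt geometric mean of 338.8 makes the Fn signal at least 7.06-fold lower. The fitted log2 change was -4.73 (SE 0.77, limma adjusted p = 5.6e-04), and its 95% interval of -6.46 to -3.00 was the widest among the members tested. It was -5.68 without Fn replicate 1, -3.80 without Fn replicate 3 and -3.44 with 16 added to each signal, so its size is given only as the bound, while the adjusted p stayed under 0.05 in each.

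Capza3 had signals of 40.9, 15.0 and 11.9 in Fn testes, against 533.3, 267.3 and 433.7 in Wt testes. Again every Fn array was under the filter level and no Wt array was. The geometric mean was at least 8.24-fold lower in Fn testes, from a Wt value of 395.4, with a fitted log2 change of -4.35 (SE 0.46, limma adjusted p = 4.3e-05).

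Actrt2, an actin-related protein of the perinuclear theca, had signals of 7.0, 30.1 and 37.9 in Fn testes, against 226.9, 148.5 and 166.5 in Wt testes. It was at least 3.70-fold lower in Fn testes, with a fitted log2 change of -3.15 (SE 0.57, limma adjusted p = 0.0011). The fitted value was -2.40 without Fn replicate 1 and -2.33 with 16 added to each signal, again with an adjusted p under 0.05. With bounds for 3 of the 4 testis genes, no order of their falls can be read. With no filter on dim probe sets, the adjusted p from limma was 8.4e-04 for Actl7a, 6.3e-05 for Capza3 and 0.0019 for Actrt2. These values rest on Fn signals that were all under the filter level, so they are no further support. In the same fit the limma adjusted p was 0.77 and 0.16 for the probe sets of Actrt3 and 0.95 for Fscn3.

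**Figure D1:**
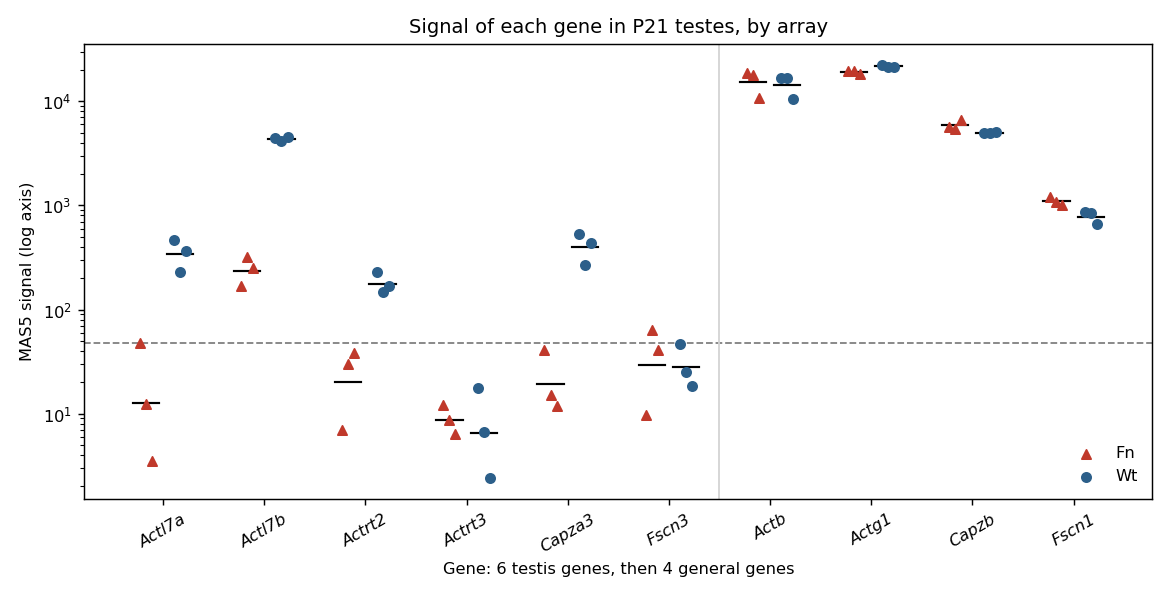
MAS5 signal (log axis) of the brightest tested probe set of each gene, or the brightest where none was tested, in 3 Fn arrays (triangles) and 3 Wt arrays (circles) of testes at P21. Horizontal bars mark geometric means, the filter level of 48 is dashed, and points run from replicate 1 to replicate 3; Actl7a, Actl7b, Actrt2 and Capza3 have every Fn point below every Wt point, whereas Actrt3 and Fscn3 lie near or under the dashed line in both genotypes.

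The geometric means of Actrt3 and Fscn3 were under the filter level in both genotypes. Actrt3, an actin-related protein that binds profilin in the perinuclear theca, had signals of 12.2, 8.7 and 6.4 in Fn and 17.7, 6.6 and 2.4 in Wt testes by its brighter probe set. Its other probe set had 5.4, 6.0 and 21.6 in Fn and 2.8, 2.7 and 2.4 in Wt testes. Both lie so low that no fold is given, also where the groups did not overlap. Fscn3, the testis fascin, had signals of 9.8, 63.6 and 40.8 in Fn and 46.5, 25.1 and 18.6 in Wt testes, and the groups overlapped. These values do not show that either gene was silent or unchanged. They show that 6 of 6 arrays for Actrt3, and 2 of 3 Fn and 3 of 3 Wt arrays for Fscn3, were under the filter level.

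The Wt arrays were not alike in the testis genes. Wt replicate 2 had the lowest signal of the 3 Wt arrays in Actl7a, Actl7b, Actrt2 and Capza3. It also had the lowest summed signal of 9 spermatid markers (13687, against 15361 and 16794 in Wt replicates 1 and 3). How much spermatid number contributes to that order was not tested. Leaving out Wt replicate 2 kept all 4 testis genes lower. Without Wt replicate 1 or without Wt replicate 3, Actl7a and Actrt2 fell under the filter level and were no longer tested, and the other 2 remained lower.

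The changes of the 4 general genes were small and not in one direction. Their probe sets on the array numbered 11, of which 9 were tested. By the brightest probe set, Capzb and Fscn1 were higher in Fn testes at an adjusted p under 0.05, as were 44.9% of all genes tested. Actg1 was lower, as were 24.7% of all genes, and Actb did not pass the test. Every change was below 1 on the log2 scale.

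Actb had signals of 18746, 17914 and 10680 in Fn testes, against 16743, 16870 and 10475 in Wt testes. Replicate 3 was the lowest array of both genotypes and the groups overlapped. The second probe set of Actb had the same low replicate 3, with 1422, 1210 and 783.9 in Fn and 1228, 976.3 and 834.3 in Wt testes. The log2 change of the brighter probe set was 0.09 (95% interval -0.42 to 0.61, limma adjusted p = 0.74), so a change of up to 0.61 is within the error. Between arrays of the same replicate number the difference was 0.16, 0.09 and 0.03 on the log2 scale for the brighter probe set. Its sign turned with the arrays centred on their medians (-0.07) or on their 75th percentiles (-0.04).

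Actg1 had signals of 19604, 19328 and 18425 in Fn testes, against 22463, 21509 and 21518 in Wt testes. Every Fn array was below every Wt array, as in 26.6% of all genes tested, and the arrays within a genotype were close. The log2 change was -0.19 (SE 0.052, limma adjusted p = 0.0096), or -0.52 against the shift of all genes. With the arrays centred on their medians the log2 change was -0.35 (limma adjusted p = 0.0012). On their 75th percentiles it was -0.32 (limma adjusted p = 6.1e-04). The adjusted p was 0.066 with no filter and 0.12 without the intensity trend in limma's error model. The suffix of this probe set marks probes shared with other transcripts, so its signal may hold more than Actg1. It lay near the top of the arrays, whose highest values were 26992 to 29796.

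**Figure D2:**
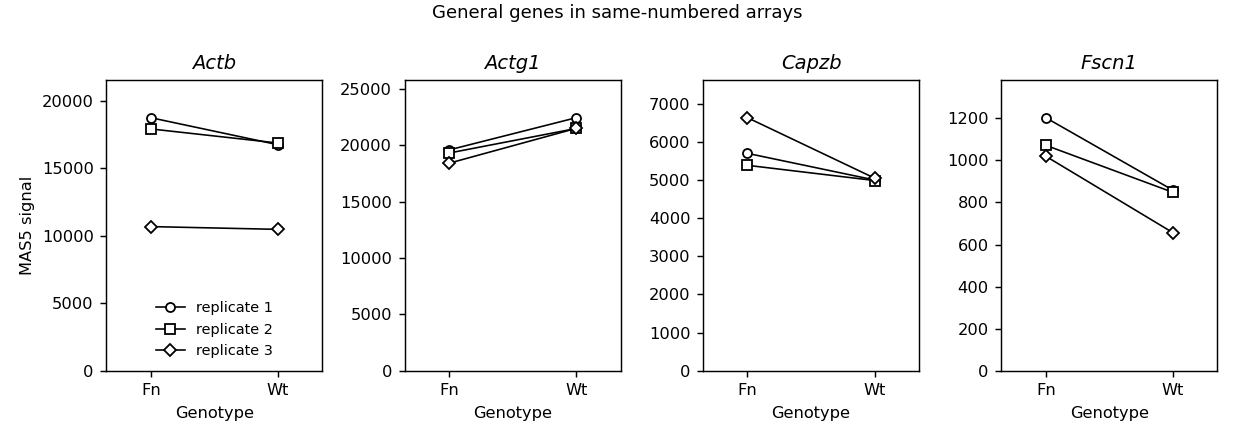
MAS5 signal (linear axis from 0) of Actb, Actg1, Capzb and Fscn1, by the probe set that stands for each gene, in Fn (left) and Wt (right) testes, with lines joining arrays of the same replicate number. Replicate 3 is the lowest Actb array of both genotypes (10680 in Fn and 10475 in Wt), while all 3 lines of Actg1 run lower in Fn and those of Capzb and Fscn1 higher in Fn.

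Capzb had signals of 5697, 5383 and 6631 in Fn testes, against 4999, 4985 and 5047 in Wt testes by its brightest probe set. All Fn arrays were higher, as in 48.9% of all genes tested. The highest value was in Fn replicate 3, and the Wt arrays lay within a narrow range. The log2 change was 0.23 (SE 0.086, limma adjusted p = 0.040), which is -0.09 against the shift of all genes. The other probe sets tested had log2 changes of 0.22 (adjusted p = 0.067) and 0.14 (adjusted p = 0.29). The call was lost with the arrays centred on their medians (log2 change 0.07, adjusted p = 0.65) and when any one array other than Fn replicate 2 was left out (log2 changes of 0.14 to 0.25). The remaining probe set was under the filter level in both genotypes. Capzb has a spliced form of the testis, and the sources used here do not tell which forms each probe set reads.

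Fscn1 was read differently by its probe sets. The brightest had 1202, 1071 and 1019 in Fn testes, against 858.0, 847.8 and 656.1 in Wt testes, with all Fn arrays higher, as in 48.9% of all genes tested. Its log2 change was 0.49 (SE 0.13, limma adjusted p = 0.010), or 0.16 against the shift of all genes, and 0.33 (adjusted p = 0.079) with the arrays centred on their medians. A dimmer probe set had 105.3, 95.8 and 83.6 in Fn and 129.5, 145.1 and 136.8 in Wt testes, with all Fn arrays lower. Its log2 change was -0.54 (limma adjusted p = 0.043), where 20.2% of all probe sets tested were called lower, and its adjusted p was 0.060 once replicate numbers were blocked and 0.056 to 0.11 when any 1 array was left out. Another one was not called (-0.06 on the log2 scale, adjusted p = 0.81), and the remaining one was under the filter level. The direction for Fscn1 therefore depends on the probe set, and with the mean of all its probe sets the log2 change was 0.26 (adjusted p = 0.48).

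**Figure D3:**
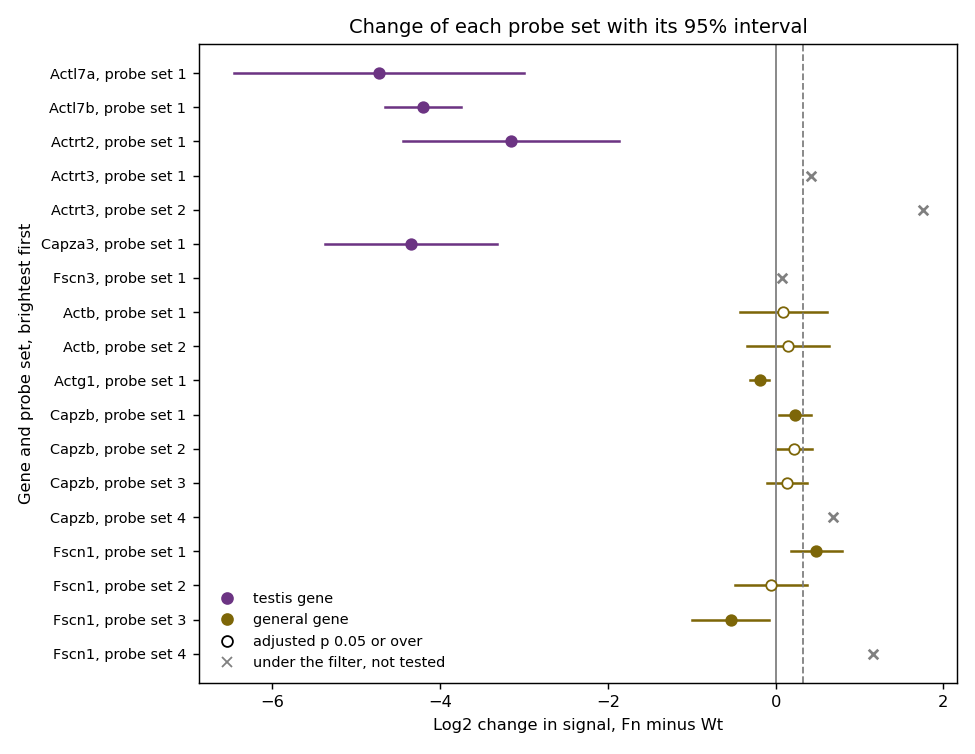
Fn minus Wt difference in log2 signal for the 18 probe sets of the 10 genes, with 95% intervals from limma for the 13 tested; vertical lines stand at 0 (grey) and at the median of all genes, 0.32 (dashed). Filled points passed an adjusted p under 0.05, open points did not and crosses were under the filter level; the 4 filled testis points lie between -4.73 and -3.15, where only bounds hold for Actl7a, Actrt2 and Capza3, and the tested general points between -0.54 and 0.49.

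The testis genes were also set against the general genes within each array. The log2 difference between Actl7b and Actb, both above the filter level in all arrays, changed by -4.29 (SE 0.49) between Fn and Wt arrays, and all 3 Fn arrays lay below all 3 Wt arrays. For the other 3 pairs only a bound is given, with the Fn mean of the testis gene set to the filter level. The change was then -3.27 for Capza3 against Capzb, -2.91 for Actl7a against Actb and -1.98 for Actrt2 against Actb. Each is a lower limit on the size of the fall with the other means taken as measured. Because these 3 genes passed the filter only through Wt, their separation within arrays is no further support. The exact permutation test over the 6 arrays, taken as unpaired, gave a two-sided p of 0.10 in each of the 4 pairs. That is the smallest that 3 against 3 unpaired arrays allow, and it was 0.10 after Benjamini-Hochberg over the 4 pairs. Across the alternatives, which included pairing by replicate number, the permutation p was 0.10 to 0.25 in each pair. The threshold of 0.05 could therefore not be reached. A ratio within an array shows unequal change and does not show that the general gene stayed level. Actrt3 and Fscn3 were not set against a counterpart because both genotypes were under the filter level.

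Some other testis genes of the same structures were lower as well. Of a list of 11 other testis actin-like, profilin and perinuclear theca genes, 6 were tested, 5 were lower and 0 higher, with a median log2 change of -3.08 (-2.80 with Fn means under the filter level set to it), where 24.7% of all genes were lower and their median was 0.32. Actl9, an actin-like protein of the perinuclear theca, had signals of 112.0, 138.3 and 99 in Fn and 1374, 1212 and 1620 in Wt testes. It was above the filter level in every array and had a log2 change of -3.59 (limma adjusted p = 3.0e-07). Pfn4, a profilin of male germ cells, had 518.3, 643.6 and 431.7 in Fn and 2973, 2877 and 3572 in Wt testes, a log2 change of -2.58 (adjusted p = 1.0e-06).

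Pfn3, the profilin that binds ACTRT3 in mouse, was at least 3.03-fold lower in Fn testes (fitted log2 change -2.44, limma adjusted p = 9.0e-05). Spata46 was at least 8.18-fold lower (limma adjusted p = 1.0e-06) and Tmco2 at least 12.8-fold lower (limma adjusted p = 9.0e-06). Pfn3, Spata46 and Tmco2 passed the filter only through their Wt arrays, so the count and the median of this list are no support in themselves. Of the 3 genes above the filter level in both genotypes, Actl9 and Pfn4 were lower and Actl10 was not called (log2 change -0.38, limma adjusted p = 0.41). Actl11, Actrt1, Cylc1, Cylc2 and Ccin were not tested. Cylc1 and Cylc2, the cylicins of the perinuclear theca, had Fn signals of 0.5 to 4.6 and Wt signals of 17.6 to 37.0, all under the filter level. Actrt1 had 29.8, 9.6 and 40.1 in Fn and 67.1, 50 and 68 in Wt testes, so that Fn was lower by at least 1.27-fold, with no test. Ccin, which encodes calicin, had 18.4, 12.8 and 7.2 in Fn and 109.7, 30.6 and 99.8 in Wt testes.

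The general alpha subunits of the capping protein moved apart. Capza1 had signals of 6238, 5436 and 6072 in Fn testes, against 11182, 10065 and 11298 in Wt testes, a log2 change of -0.88 (SE 0.078, limma adjusted p = 1.5e-05). Capza2 had 4294, 4110 and 3866 in Fn testes, against 2754, 2674 and 2271 in Wt testes, a log2 change of 0.68 (SE 0.095, limma adjusted p = 2.3e-04). In neither gene did the groups overlap. All Fn arrays were lower in 26.6% of all genes tested, as for Capza1, and higher in 48.9%, as for Capza2. The second probe set of each gene gave a change of the same direction and size (-0.91 for Capza1 and 0.67 for Capza2). Of the 11 other capping and end-binding genes tested, 8 were higher, against 44.9% of all genes, and Capza1 alone was lower, against 24.7%, with a median log2 change of 0.68. The largest rises among them were 1.27 for Scin and 0.97 for Gsn, which sever filaments and cap their ends. Of the 5 Gsn probe sets tested, 4 were called higher, and the changes ran from -1.26 to 1.05.

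Among the other actins and actin-related proteins, 4 of 9 genes tested were lower and 2 higher, against 24.7% and 44.9% of all genes, with a median log2 change of -0.19. Acta2, the smooth muscle actin, had signals of 11745, 12057 and 11138 in Fn testes, against 8098, 7945 and 6781 in Wt testes, a log2 change of 0.62 (limma adjusted p = 1.4e-04). Like that of Actg1, this probe set carries the suffix for shared probes. Of the 2 Acta2 probe sets tested 1 was called higher, and the other changed by 0.39. Actr3, a core subunit of the Arp2/3 complex that starts branched filaments, was higher by 0.81 (adjusted p = 0.0053). Actr1a, the actin-related protein of dynactin, was lower, with a log2 change of -1.08 by its brightest probe set, while its 3 probe sets tested ran from -2.95 to 0.05. Actl6a, a subunit of chromatin remodellers, had -0.61, with 1 of its 3 probe sets at 0.57 and not called. Of 5 Arp2/3 subunits tested, 3 were higher and 1 lower, which is close to the 44.9% and 24.7% of all genes. Arpc5 rose by 0.97 and Arpc4 by 0.71, whereas Arpc5l had -0.43, and 0.61 by another of its probe sets that was called higher.

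Of 12 bundling and crosslinking genes tested, 10 were higher, against 44.9% of all genes, and 1, Fmn1, was lower, against 24.7%, with a median log2 change of 0.72. Flna, a filament crosslinker, rose by 1.19 and Pls3, a plastin, by 1.12. Fmn1 is a formin, which starts filaments rather than bundling them, and had signals of 21.6, 29.1 and 21 in Fn and 188.0, 165.7 and 216.0 in Wt testes, at least 3.93-fold lower. Fmn1 passed the filter only through its Wt arrays and so had to differ, which makes its call no result in itself. Fscn2, the fascin of retina and inner ear, had signals of 2.7 to 36.4 in Fn and 4.9 to 21.7 in Wt testes, all under the filter level.

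Of 14 genes of monomer binding and filament turnover, 8 were higher and 3 lower, near the 44.9% and 24.7% of all genes, and the median log2 change of 0.29 was near that of all genes, 0.32. Cfl1, the non-muscle cofilin, was higher by 0.35 (limma adjusted p = 0.0028), while Cfl2 had -0.23 (adjusted p = 0.022) by its brightest of 3 probe sets, which ran from -0.87 to 0.31. Pfn1 was higher by 0.24 (adjusted p = 0.030), and Pfn2 had -0.21 (adjusted p = 0.065). The largest rises were 1.22 for Dstn, a filament-severing relative of cofilin, and 1.07 for Ssh1, the phosphatase that activates cofilin. Tmsb10, which binds actin monomers, had -0.34. Cap2, a cyclase-associated protein, had 32.7, 39.7 and 32.8 in Fn and 374.7, 386.2 and 334.3 in Wt testes, at least 7.59-fold lower. Cap2, which is among the 3 lower genes, passed the filter only through Wt and so had to differ.

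**Figure D4:**
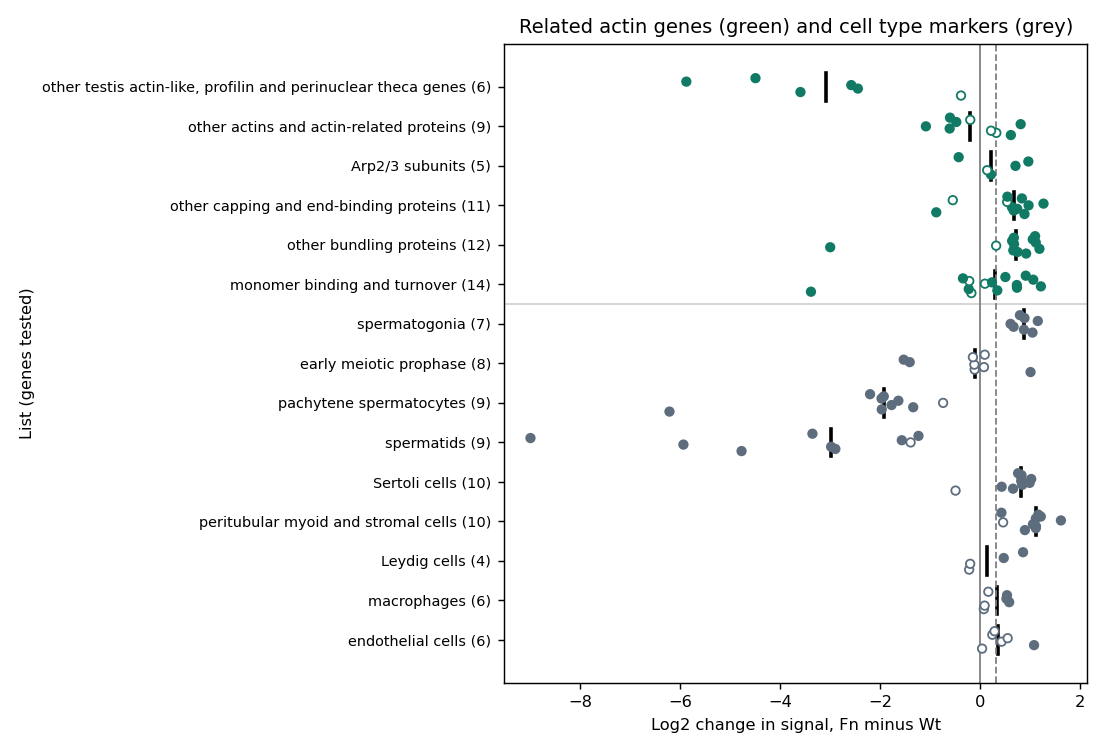
Fn minus Wt difference in log2 signal for the genes tested in 6 lists of related actin genes (green, above the line) and 9 lists of cell type markers (grey). Filled points were called at a limma adjusted p under 0.05, each black bar marks the median of its list, and the vertical lines stand at 0 (grey) and 0.32 (dashed); the medians are -3.08 for the testis actin list, -2.98 for spermatid markers, -1.93 for pachytene markers, 0.83 for Sertoli cell markers and 1.12 for peritubular markers.

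Markers of germ cells and of somatic cells of the testis also differed between the genotypes. Of 12 spermatid markers 9 were tested and 8 were lower in Fn testes, against 24.7% of all genes. However, 5 of the 9 passed the filter only through Wt and so had to differ, and Tnp1, Tnp2 and Spem1 were not tested. Of the 4 above the filter level in both genotypes, Spaca1, Dkkl1 and Tssk1 were lower and Prm1 was not called (adjusted p = 0.060). The summed signal of the 9 was 1796 to 2157 in Fn and 13687 to 16794 in Wt testes. Most of this sum was Dkkl1 in every array, with signals of 1068.8 to 1380.1 in Fn and 8819.2 to 11132.5 in Wt testes. Smcp, a spermatid marker, was near 0 in Fn testes with 2.4, 2.7 and 1.7, and Acrv1 had 14.4, 52.1 and 14.2. Of 9 pachytene spermatocyte markers 8 were lower, against 24.7% of all genes, with summed signals of 19276 to 27114 in Fn and 76500 to 82238 in Wt testes. Ccna1, 1 of those 8, passed the filter only through Wt and so had to differ. Of 10 Sertoli cell markers 9 were higher, against 44.9% of all genes, with summed signals of 43142 to 44319 in Fn and 26427 to 30447 in Wt testes, and so were 9 of 10 markers of peritubular myoid and stromal cells, with 33289 to 35198 in Fn and 13675 to 19276 in Wt testes. All 7 spermatogonial markers tested were higher, against 44.9% of all genes. Of 8 early prophase markers 2 were lower and 1 higher, against 24.7% and 44.9% of all genes. Of the other somatic markers, 2 of 4 Leydig cell, 3 of 6 macrophage and 1 of 6 endothelial markers were higher, with 0 lower, which is near or under the 44.9% of all genes. The part of these cell types in the changes of the actin genes was not tested.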

How the data were processed

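RNA of 3 Fn and 3 Wt whole testes at P21 was hybridised to Affymetrix Mouse Genome 430 2.0 arrays. As deposited by the authors, the values are MAS5 signals, which are linear intensity values of probe sets. The submitters' processing notes name MAS5 and give no version of it. The platform annotation assigned 1 gene to 34945 probe sets, several genes to 932 and none to 9160, and genes were named from the first of these classes. The file held 1 value of 0, replaced by 0.1 for the log2 scale. Fn was tested against Wt in R 4.3.3 by limma 3.58.1, using lmFit and then eBayes with a trend on intensity, with Benjamini-Hochberg adjustment. The brightest probe set tested stood for its gene. Where a group's geometric mean was under the filter level of 48, the fold is the brighter geometric mean over that level, written as "at least". This bound takes the brighter mean as measured and holds no error from its 3 arrays.

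The members and lists were chosen with earlier results of these data known. Named were all members, fixed counterparts, up to 2 of the largest falls and rises of each related list and, for members above the filter level in both genotypes, the 3 genes nearest over the 6 arrays. The limma fit was tested on simulated data with normal noise and changes planted in probe sets at or above the median signal. Over probe sets, the deviations of same-numbered Fn and Wt arrays from their group means had correlations of 0.13, 0.12 and 0.16, while those of other pairs were -0.15 to 0.04. Since each group was centred on its own mean, low values of other pairs follow from positive same-number values and are no separate evidence. Pairing by the numbers in the labels rests on the same-number correlations alone, because the labels state no pairing. The main fit left the arrays unpaired, and the pairing was used as an alternative. The number of arrays limits the precision. Alternatives covered scaling, the filter, a pseudocount of 16, the error model, array weights, the probe set rule, the replicate block and leaving out each array.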

Additional observations from a re-analysis of the deposited data

How the results depend on the processing

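Actl7a, Actl7b, Actrt2 and Capza3 stayed lower at an adjusted p under 0.05 under every alternative in which they were tested. Of these, Actl7b alone lay above the filter level in both genotypes. The calls of Actl7a, Actrt2 and Capza3 rest on Fn signals under that level and are no support in themselves. With a filter at the 60th percentile only 1 testis gene, Actl7b, was tested and lower, and without 1 array the number lower was 2 to 4, because fewer passed the filter. Of the general genes, 2 were higher, against 0 after centring on medians or with the mean of probe sets, 1 with centring on 75th percentiles, no filter or no intensity trend, and 1 to 2 without 1 array. The number lower, 1, was 0 with no filter and with no intensity trend. In the lists, 8 testis genes were lower with no filter and 2 with the 60th percentile, against 5. With the mean of probe sets 2 other actins, against 4, and 0 Arp2/3 subunits were lower, and at the 60th percentile 0 bundling genes.

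Changes that did not pass the test turned sign for Actb (-0.066 and -0.037 with centring on medians and 75th percentiles, and -0.13 to 0.35 without 1 array, below 0 without Fn replicate 1, Fn replicate 2 or Wt replicate 3), its second probe set (-0.015 with centring on medians, and -0.038 to 0.39 without 1 array, below 0 without Fn replicate 1), a dimmer Capzb probe set (-0.023 with centring on medians) and a dimmer Fscn1 probe set (0.079 with array weights, and -0.24 to 0.11 without 1 array, above 0 without Wt replicate 3). With the replicate block, 3410 genes were lower and 6165 higher, against 3328 and 6034, and of the members' calls it ended only that of the Fscn1 probe set called lower (adjusted p = 0.060). A planned limma test of the pair differences after subtracting the counterpart from all probe sets was not used, since every probe set then shares the counterpart's error.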

Other observations

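For members above the filter level in both genotypes, the 3 genes whose 6 log2 signals, relative to their own Wt mean, lay nearest were found among 13439 other genes. The likeness is the Euclidean distance over the 6 arrays, given as a description with no test. Nearest to Actl7b was Sphkap (distance 0.45), with signals of 177.2, 283.3 and 173.3 in Fn and 3788, 3793 and 4269 in Wt testes, followed by Aqp9 (0.51) and Pkdrej (0.54). Neighbours of Actl7a, Actrt2 and Capza3 are not given, because their Fn signals were all under the filter level and a distance over them would rest on dim values.

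The general genes had other neighbours. Actb, with its low replicate 3 in both genotypes, was nearest to Xpnpep3 (distance 0.23), Sntb2 and Slc25a27 (0.30 each). Actg1 was nearest to Qk (0.044), Urb2 (0.059) and Actr6 (0.063), Capzb to Fuca1 (0.049), Xpo5 (0.078) and Atp6v0d1 (0.084), and Fscn1 to Cwf19l1 (0.11), Hmgn1 (0.12) and Iars (0.13). Small distances are easier to reach for genes that change little, so distances are not compared between members.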
